A study of Mus musculus with 10 samples.

Results

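Broad H3K27ac regions are stretches of chromatin that carry acetylated lysine 27 of histone H3 over several kilobases. They were examined here in mouse bone marrow-derived mast cells. The regions were chosen by the H3K27ac peaks themselves: overlapping peaks of the 3 H3K27ac lists were merged, merged regions with a peak of every list were kept as consensus regions, and neighbours up to 12.5 kb apart were stitched into clusters. Consensus regions of 5000 bp or longer, on chromosomes 1 to 19, in a cluster of fewer than 10 regions, were taken. This gave 428 regions of the 19670 consensus regions of the whole series, of which 19258 lay on chromosomes 1 to 19. Another 102 regions of that length lay in clusters of 10 or more and serve as a comparison. With 1 H3K27ac list left out the rule found 244 regions without replicate 1, 285 without replicate 2 and 283 without replicate 3.

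H3K27ac is set by the acetyltransferases p300 and CBP and is found at promoters and enhancers in use. Monomethylation of lysine 4 (H3K4me1), set mainly by the methyltransferases MLL3 and MLL4, marks both poised and working enhancers, and is usually low at the start sites of active genes, where trimethylation takes its place. Long or tightly gathered stretches of H3K27ac are known in many cell types from genes that define the cell. Mast cells are tissue-resident cells of the myeloid lineage that store histamine and proteases in granules and release them when IgE bound to its receptor is crosslinked.

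The cells were from untreated C57BL/6 mice 6 to 8 weeks old, with no transgene or deletion named in the labels. Bone marrow was grown for 4 weeks with interleukin-3 at 20 ng/ml, and over 99% of the cells were positive for the IgE receptor and Kit by flow cytometry. The 10 samples were 3 H3K27ac immunoprecipitates, 2 H3K4me1 immunoprecipitates and the input of each of the 5, so the comparisons are between marks and between classes of regions, not between conditions. The labels do not say whether replicates were separate cultures or animals, and the p-values below therefore concern only these lists. They are from sign tests, which use the direction of the difference in each list and not its size. The lists rest on 10457047 to 19513552 tags per immunoprecipitate, and each mark was called with a version of MACS2 of its own.

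The broad regions were 5004 to 17024 bp long, with a median of 6324 bp. They made up 2.22% of the consensus regions of chromosomes 1 to 19 and 10.98% of their bases, or 2996 kb in all. Just inside the limit lay regions of 5004 bp on chromosome 7 from 139673328, 5005 bp on chromosome 2 from 129211397 and 5009 bp on chromosome 8 from 125219743. Just outside it were regions of 4994 bp on chromosomes 3 and 9, from 97733024 and 51269659, and 1 of 4990 bp on chromosome 11 from 62275162. The limit thus fell within a run of regions of nearly equal length.

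Most of the regions were not a single long peak in every list. The longest peak inside a region had a median length of 5032, 4095 and 4271 bp in H3K27ac replicates 1, 2 and 3. A single peak of 5000 bp or more was present in 221, 135 and 149 regions in the 3 lists. It was present in all 3 lists in 75 regions, in 2 lists in 66, in 1 list in 148 and in none in 139. In the last group the length of the region arose only by joining peaks across lists. Peaks of replicate 1 covered 93.3% of the bases of the regions, those of replicate 2 88.1% and those of replicate 3 85.6%.

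**Figure D1:**
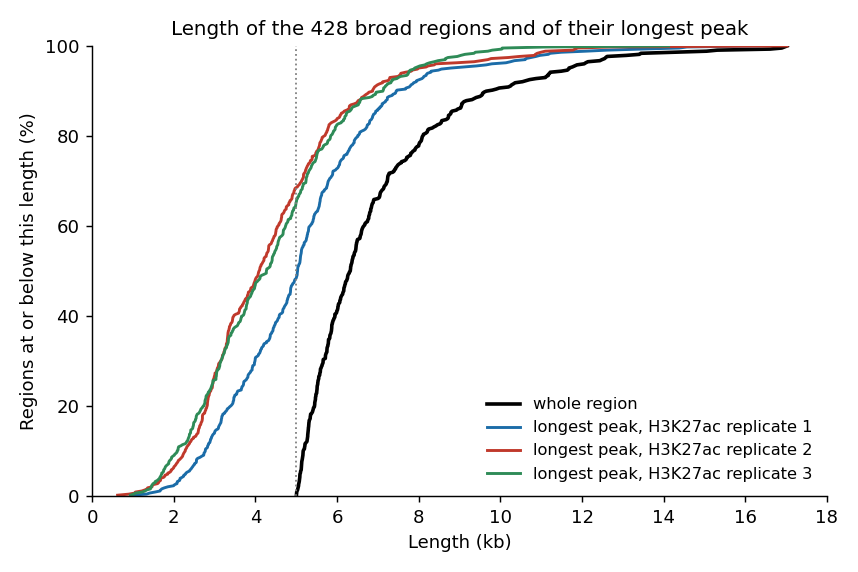
Cumulative share of the 428 broad regions (vertical axis, percent) by length in kb (horizontal axis), for the whole region (black) and for its longest peak in each H3K27ac list (colours). The dotted line marks 5 kb: every region lies to its right, but the longest peak reached it in 221, 135 and 149 regions in replicates 1, 2 and 3.

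The lists divided the same region differently. The region on chromosome 1 from 182347503 to 182364462, 16960 bp long, held 2 H3K27ac peaks in replicate 1, 11 in replicate 2 and 12 in replicate 3, and its longest peak covered 85.9%, 23.9% and 15.7% of it. Chromosome 2 from 131676971 to 131692282 held 3, 7 and 9 peaks, and chromosome 2 from 172258212 to 172266760 held 5, 6 and 7. These were 3 of the most divided regions. At the other end, 18 regions were 1 peak in every list. The region on chromosome 3 from 65762266 to 65767567 was covered by its longest peak to 100%, 98.5% and 98.9%. For chromosome 10 from 58890668 to 58896537 these shares were 98.4%, 99.3% and 99.7%, and for chromosome 7 from 25176075 to 25182278 they were 99.6%, 98.2% and 99.8%.

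The place of the highest H3K27ac peak within a region was repeated closely in some regions and not in others. The summits of the highest peak of the 3 lists lay within 500 bp of each other in 155 regions and more than 2000 bp apart in 116, with a median spread of 824 bp. On chromosome 1 from 175144905 to 175159956, a region of 15052 bp, they lay within 24 bp. On chromosome 2 from 131676971, a region of 15312 bp, they were 10404 bp apart. The height of the highest peak, given by the authors as fold enrichment over the input, had medians of 22.0, 15.1 and 17.8 in replicates 1, 2 and 3. Across the 428 regions its rank correlation between lists was 0.315 for replicates 1 and 2, 0.262 for 1 and 3, and 0.301 for 2 and 3. The points share libraries and neighbourhoods, and this is a description.

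Of the 428 regions, 45, or 10.5%, had no other consensus region within 12.5 kb. The share was 25.7% over all consensus regions of chromosomes 1 to 19 and 18.9% among those of 2 to 5 kb. Cluster size and H3K27ac position were used in the choice, so these shares are a description. Another 192 broad regions were in clusters of 2 to 4 and 191 in clusters of 5 to 9. They were spread over 377 clusters, of which 333 held 1 broad region, 38 held 2 and 6 held 3 or more. The broad region supplied a median of 54.3% of the H3K27ac cover of its cluster. The cluster on chromosome 2 from 129193480 to 129234208 held the most, 4 of its 8 regions, which together covered 25.6 kb of 40.7 kb. Next were clusters of 9 regions on chromosome 6 from 116357059 to 116411144 and of 8 on chromosome 1 from 89516189 to 89563828, with 3 broad regions each.

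The nearest neighbour was often very close. In 227 regions, or 53.0%, another consensus region began within 500 bp of an edge, and the median of these gaps was 193 bp. So near a neighbour was found for 44.9% of all consensus regions of chromosomes 1 to 19 and for 43.2% of those of 2 to 5 kb. These gaps had almost no H3K27ac peak by construction, since the regions would otherwise have been joined. H3K4me1 peaks, which played no part in the choice, covered 7.33% and 5.44% of the bases in these gaps in replicates 1 and 2. They covered 30.05% and 27.6% of the broad regions beside them. The gaps were thus less covered than the broad regions beside them in both lists of the other mark. Between their outermost peaks on chromosomes 1 to 19 these lists covered 1.41% and 1.42% of bases. What lies in the gaps was not tested.

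Most broad regions carried H3K4me1. An H3K4me1 consensus region, that is, a merged region with a peak in both H3K4me1 lists, overlapped 365 of 428 regions, or 85.3% (95% Clopper-Pearson interval 81.6 to 88.5, counting error only). The background over all H3K27ac consensus regions of chromosomes 1 to 19 was 41.2%. Only 24 regions, or 5.61% (3.63 to 8.23), had no H3K4me1 peak in either list, against a background of 46.1%. Length alone raises the chance of an overlap. With the window set to the central 1000 bp of each region the share was 54.0% (49.1 to 58.8), against 38.3% over all consensus regions and 51.1% (49.2 to 53.0) for the 2728 regions of 2 to 5 kb outside clusters of 10 or more. Over all consensus regions the median length was 985 bp, so windows of 1000 bp there often reached outside the region. At a fixed window the intervals of broad and mid-length regions overlapped.

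The share of bases under H3K4me1 peaks was 31.1% in replicate 1 and 29.5% in replicate 2, a mean of 30.3% ± 1.11 (SD, n = 2 lists). The same lists covered 1.41% and 1.42% of chromosomes 1 to 19, each counted between its outermost peaks. Most bases of the broad H3K27ac regions therefore lay outside H3K4me1 peaks. The median region held 3 H3K4me1 peaks in either list and 2 H3K4me1 consensus regions. Peaks inside broad regions had a median fold of 7.31 in replicate 1, against 6.37 for peaks outside any H3K27ac consensus region. In replicate 2 the medians were 6.63 and 6.02. Of the peaks in broad regions, 18.9% and 17.4% fell in the top 10% of their list by fold, compared with 16.9% and 16.3% of peaks in other H3K27ac consensus regions. In regions of 2 to 5 kb the shares were 18.7% and 17.2%, and the median fold was 7.22 and 6.65, above the broad regions in replicate 2.

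Regions differed widely in H3K4me1 cover, and both lists ranked them in a similar order. Cover ranged from 0% to 96.6% in replicate 1, with a median of 27.5%, and from 0% to 98.1% in replicate 2, with a median of 26.1%. The rank correlation of the lists across the 428 regions was 0.896, a description over regions that share both libraries. By the mean of the lists, 97 regions were under 10%, 248 between 10% and 50%, and 83 at 50% or more. Correlations of H3K4me1 cover with length and H3K27ac height were near 0. Its rank correlation was 0.0344 with length and -0.0810, -0.0860 and -0.0508 with the highest H3K27ac fold in the 3 lists.

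**Figure D2:**
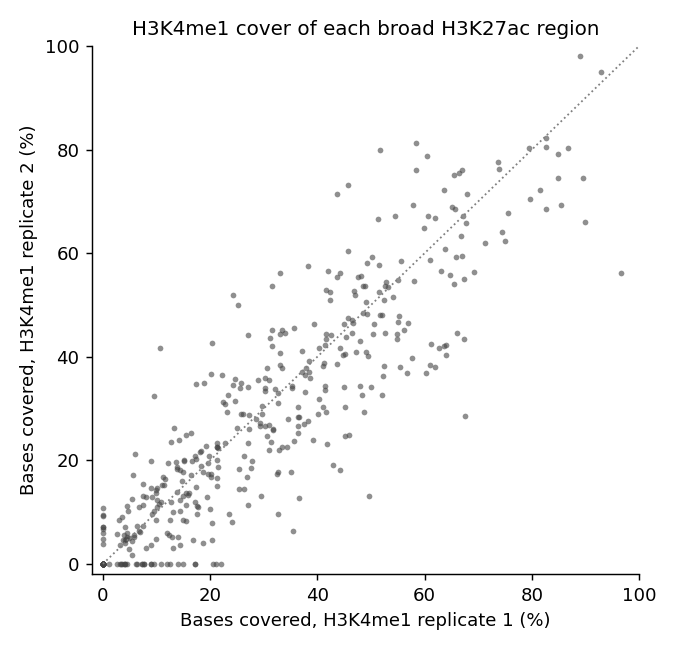
Share of the bases of each broad region covered by H3K4me1 peaks (percent), in H3K4me1 replicate 1 (horizontal axis) and replicate 2 (vertical axis); each of the 428 points is a region and the dotted line marks equal values. The points follow the line from 0% to above 90%, with medians of 27.5% and 26.1%.

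At the high end, chromosome 16 from 18156530 to 18162548 was covered to 92.8% and 95.05% by H3K4me1 in replicates 1 and 2. It stood alone, with its nearest consensus region 86570 bp away, and had highest H3K27ac folds of 19.4, 12.2 and 27.4. Chromosome 5 from 35374922 to 35385795 was covered to 89.0% and 98.1%, over 10874 bp, and its H3K27ac summits of the 3 lists lay within 16 bp. The other regions of the top 5 were chromosome 15 from 83122535 to 83128061 at 86.8% and 80.4%, chromosome 11 from 4188705 to 4198010 at 82.7% and 82.3%, and chromosome 11 from 98801198 to 98806350 at 89.6% and 74.6%. Of these 5, 3 stood alone, against 45 of all 428. Mean cover was 31.6% over the regions that stood alone, 32.4% in clusters of 5 to 9 and 30.3% over all broad regions. The 5 were chosen by their H3K4me1 cover, so that it was high in each is no result.

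At the low end, 24 regions had no H3K4me1 peak, and the 5 longest of them had H3K27ac peaks of the following heights. Chromosome 14 from 79914867 to 79923535, 8669 bp long, had highest H3K27ac folds of 21.3, 15.5 and 20.2. The region of chromosome 11 from 18912027 to 18920448 had 25.6, 12.5 and 15.4. The region of chromosome 5 from 30337740 to 30346071 had 28.7, 27.7 and 24.99. On the same chromosome, the region from 75970275 to 75978201 reached 12.3, 16.7 and 26.1, and that on chromosome 13 from 63341353 to 63348626 reached 27.4, 17.2 and 13.0. Over all 24 the median highest fold was 21.7, 14.4 and 19.1 in the 3 lists, beside 22.1, 15.1 and 17.8 for the regions with it. An H3K4me1 consensus region lay within 2000 bp of an edge in 9 of the 24, and in 290 of all 428 regions.

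The 10 longest regions also differed widely in H3K4me1 cover, from 5.77% to 75.7% by the mean of the lists. Chromosome 14 from 56557861 to 56574884 was the longest, at 17024 bp. A single peak covered 95.9%, 100% and 82.9% of it in the 3 H3K27ac lists, while H3K4me1 covered 19.7% and 17.3%. In the same cluster, chromosome 14 from 56538702 to 56551779 had 41.6% and 52.8% under H3K4me1. The next, on chromosome 1 from 182347503, had 65.2% and 69.0%, with H3K4me1 folds up to 17.5 and 16.6. For chromosome 5 from 30280846 to 30297737 the shares were 15.4% and 11.3%. For chromosome 18 from 65156403 to 65173006 they were 33.4% and 37.8%.

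Among the other 5 of these, chromosome 2 from 38385314 to 38398753 had the most H3K4me1, with 73.7% and 77.7%. Chromosome 1 from 175144905 to 175159956 had the least, with 3.02% and 8.52%, although its highest H3K27ac folds were 30.9, 23.9 and 23.2. The shares were 29.0% and 35.5% on chromosome 2 from 131676971, and 11.1% and 16.8% on the same chromosome from 160523357 to 160536762. Chromosome 1 from 89516189 to 89530424 had 20.4% in replicate 1 and 7.80% in replicate 2.

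Within a region, H3K4me1 cover was lower around the highest H3K27ac summit than in the rest of the region. Averaged over the summits of the 3 H3K27ac lists, the 1000 bp around the summit were covered to 26.96% in H3K4me1 replicate 1, against 31.8% of the remaining bases. In replicate 2 the values were 24.2% and 30.4%. The differences were -4.81 and -6.25 percentage points, a mean of -5.53 ± 1.02 (SD, n = 2 lists; exact two-sided sign test over lists, p = 0.5, the smallest that 2 lists allow). The difference had the same sign for each of the 6 pairings of an H3K27ac with an H3K4me1 list, from -4.43 to -7.17. In regions of 2 to 5 kb it was -2.67 and -3.61, and in broad regions of large clusters -1.10 and -2.04. Whether the classes differ in this was not tested.

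Single regions differed in this window. For the summits of H3K27ac replicate 1, 185 regions (43.2%) had no H3K4me1 in either list within the summit window, and 80 had at least 50% of the window covered in both lists. For the summits of replicates 2 and 3 these numbers were 175 and 173 regions without, and 74 and 80 with at least 50%. Of the regions without H3K4me1 at the summit, 127, 116 and 116 carried an H3K4me1 consensus region elsewhere within their bounds. By another measure, the central 1000 bp overlapped an H3K4me1 consensus region in 231 of 428 broad regions (54.0%). In regions of 2 to 5 kb 51.1% of central windows did. This measure counts overlap with a consensus of both lists, not windows without H3K4me1 in either list. Whether windows without H3K4me1 are particular to the summit was therefore not tested.

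By distance, H3K4me1 cover was lower beside the summit than at it or farther away. Within 250 bp of the summit, H3K4me1 covered 30.3% and 27.8% of the bases in replicates 1 and 2. Between 250 and 750 bp it covered 24.3% and 21.7%, and between 1000 and 2000 bp it covered 31.3% and 30.2%. The dip on either side of the summit was present in both lists. Regions of 2 to 5 kb had 30.4% and 28.8% within 250 bp, and 24.8% and 24.2% between 250 and 750 bp. Between 750 and 1000 bp they had 27.6% and 27.3% before the summit and 28.2% and 27.9% after it. Between 1000 and 2000 bp, where their own edges are near, they had 24.8% and 24.6%. Broad regions of large clusters had 40.8% and 32.4% in the 250 bp after the summit, and 24.3% and 21.1% in the next 250 bp. Between 750 and 1000 bp they had 32.3% and 29.5%. Before the summit the order of these bins was the same. The dip was thus not particular to the 428 regions.

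**Figure D3:**
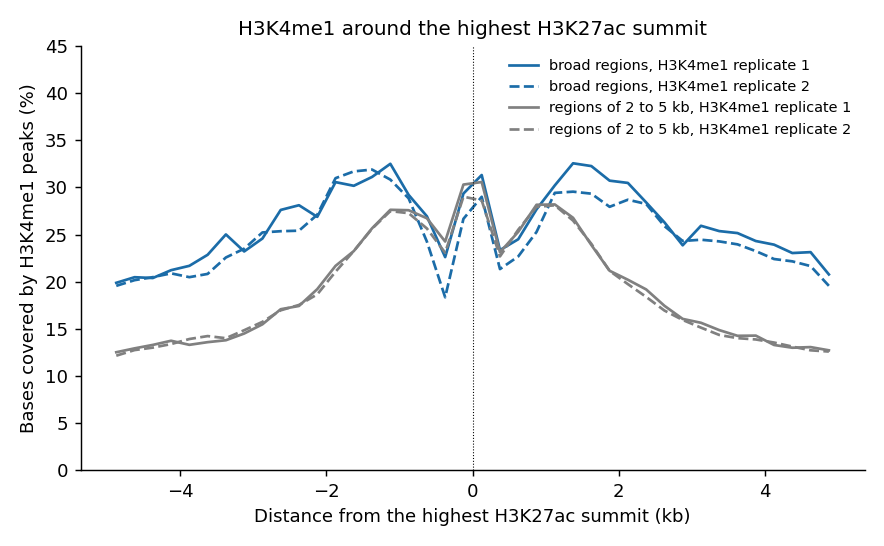
Share of bases covered by H3K4me1 peaks (percent) in bins of 250 bp by distance in kb from the summit of the highest H3K27ac peak, averaged over the summits of the 3 H3K27ac lists, for the 428 broad regions (blue) and the 2728 regions of 2 to 5 kb (grey); solid and dashed lines are H3K4me1 replicates 1 and 2. Cover in broad regions falls from 30.3% and 27.8% at the summit to 24.3% and 21.7% beside it and rises again to 31.3% and 30.2% at 1000 to 2000 bp. In regions of 2 to 5 kb it falls from 30.4% and 28.8% to 24.8% and 24.2% beside the summit.

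At the geometric centre the lists did not share a direction. The central 1000 bp of broad regions were covered to 30.004% and 27.6% in H3K4me1 replicates 1 and 2, and the outer 500 bp at each edge to 29.2% and 27.9%. The differences were 0.813 and -0.303 points, opposite in sign (mean 0.255 ± 0.789, SD, n = 2 lists; exact sign test, p = 1). With windows of 1000 bp at the edges and 2000 bp in the centre the mean difference was -2.53 points. The central windows of regions of 2 to 5 kb were covered to 28.5% and 27.1%. Broad regions exceeded them by 1.55 and 0.562 points (mean 1.05 ± 0.696, SD, n = 2 lists; exact sign test, p = 0.5). Pooled over the clusters of the broad regions, the direction was the opposite. There the central windows of the 373 broad regions with shorter neighbours were covered to 29.5% and 27.7%. Those of the 367 neighbours of 2 to 5 kb were covered to 36.1% and 37.1%. These broad regions and neighbours were pooled and not matched cluster by cluster.

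H3K4me1 cover was higher just inside the edges of broad regions than just outside. In the last 250 bp before the edge, outside the region, H3K4me1 covered 14.0% and 11.6% of the bases. In the first 250 bp inside it covered 24.2% and 22.8%, and between 500 and 750 bp inside 35.2% and 34.3%. The other classes had such a step too. From the last 250 bp outside to the bin at 500 to 750 bp inside, cover went from 14.7% in both lists to 32.2% and 31.8% in regions of 2 to 5 kb. In broad regions of large clusters it went from 10.7% and 13.1% to 36.3% and 33.9%. Further out it was higher again, with 21.6% and 20.8% in the bin from 750 to 1000 bp outside the edge, and then fell to 14.8% and 14.9% at 5000 bp. The low bin at the edge takes in the narrow gaps to close neighbours described above. H3K4me1 consensus regions lay within 2000 bp outside both edges in 122 regions, or 28.5% (24.3 to 33.0), outside 1 edge in 168 and outside neither in 138. For regions of 2 to 5 kb the share with both was 26.6% (24.998 to 28.4), so the intervals overlapped.

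**Figure D4:**
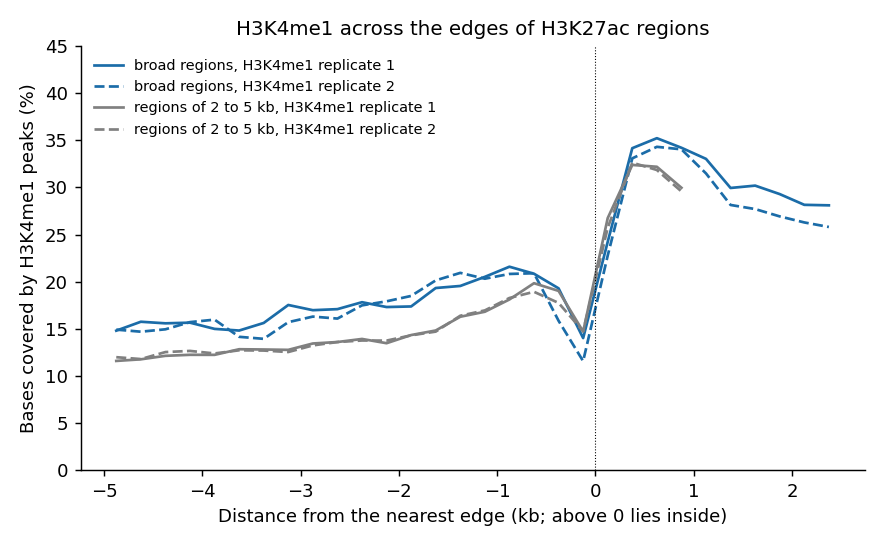
Share of bases covered by H3K4me1 peaks (percent) in bins of 250 bp by distance in kb from the nearest edge of the region, negative outside and positive inside, for the 428 broad regions (blue) and the 2728 regions of 2 to 5 kb (grey, drawn up to 1 kb inside); solid and dashed lines are H3K4me1 replicates 1 and 2. In broad regions cover rises from 14.0% and 11.6% just outside to 35.2% and 34.3% at 500 to 750 bp inside.

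The 2 lists often had more H3K4me1 on the same side of a region. Of the 367 regions with H3K4me1 bases in both lists, 291 had more of them on the same side of the midpoint in both. In 74 of these regions that side held at least 80% of the H3K4me1 bases in both lists. The median share on the richer side was 66.0% in replicate 1 and 68.6% in replicate 2. As 1 side is always the richer, these medians have no value of 50% to be read against. Sides were not counted in other classes of regions, so these numbers are a description.

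H3K4me1 cover of broad regions did not follow cluster size in order. Regions that stood alone had 32.0% and 31.2% of their bases covered in replicates 1 and 2, those in clusters of 2 to 4 had 28.8% and 26.9%, and those in clusters of 5 to 9 had 33.1% and 31.7%. The 102 broad regions in clusters of 10 or more had 35.0% and 30.9%. The difference of the regions outside these large clusters from those inside was -3.89 and -1.36 points (mean -2.63 ± 1.79, SD, n = 2 lists; exact sign test, p = 0.5). The 4 sign tests on H3K4me1 cover gave a Benjamini-Hochberg adjusted p of 0.667 or more, and with 2 lists none could have passed a threshold. With peaks of a list joined across gaps up to 1000 bp the mean difference from large clusters was 0.885 points, the opposite direction. The 2 lists were then opposed, at 3.69 and -1.92.

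**Figure D5:**
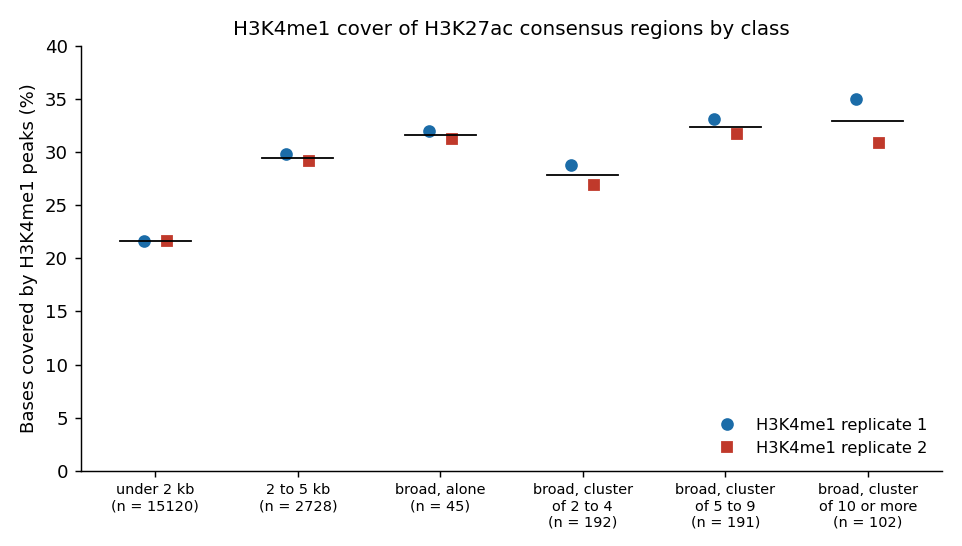
Share of bases covered by H3K4me1 peaks (percent, vertical axis) for classes of H3K27ac consensus regions, by length for those outside clusters of 10 or more (under 2 kb, 2 to 5 kb) and by cluster size for broad regions; circles and squares are H3K4me1 replicates 1 and 2 and the line is their mean. Broad regions alone and in clusters of 2 to 4 and 5 to 9 have means of 31.6%, 27.8% and 32.4%, beside 29.5% for 2 to 5 kb and 21.6% for shorter regions.

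The shorter regions of the same clusters offer a comparison within neighbourhoods. In 327 clusters a broad region had shorter neighbours, 373 broad and 1150 shorter regions in all. H3K4me1 covered 31.1% and 29.6% of the bases of these broad regions in replicates 1 and 2, and 34.2% and 34.4% of those of their shorter neighbours. By the mean of the lists, the broad regions had the higher share in 149 clusters, the lower share in 173 and the same in 5. The median over clusters was 27.6% for broad regions and 31.9% for neighbours. The pooled share was thus higher in the shorter neighbours in both lists, while single clusters went either way. This comparison was added after the lists were seen.

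The number and the H3K4me1 cover of broad regions are described here by chromosome. Chromosome 11 held the most, 43, and chromosome 12 the fewest, 8. Chromosome 11 also had the most consensus regions, 1779, of which broad regions were 2.42% (1.75 to 3.24), an interval that holds the 2.22% of all these chromosomes. As a share of consensus regions the range was from 1.12% (0.486 to 2.20) on chromosome 12 to 3.23% (1.85 to 5.19) on chromosome 18. The intervals of these 2 chromosomes overlapped. H3K4me1 cover of the broad regions was lowest on chromosome 13, with 14.1% and 13.7% over 10 regions, and highest on chromosome 8, with 42.4% in both lists over 17 regions. Chromosome 11, with the most regions, had 39.6% and 37.5%. By the mean of the lists single regions ranged from 0% to 93.9%. No cover of all consensus regions by chromosome is given here, so whether chromosomes differ in this was not tested.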

How the data were processed

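Per the file headers, the authors ran MACS2 on every immunoprecipitate separately, with its input as control, for narrow peaks at a q-value limit of 0.001. The version was 2.1.1.20160309 for H3K27ac and 2.0.10.20130306 for H3K4me1 by those headers. Only the latter, with the build mm9, appears in the submitters' processing notes. An aligner is not named in the sources used here. At most 1 tag per position was counted, and the larger library was scaled to the smaller, per the file headers. The deposited signal is the pileup at the summit. It was not used for results, nor were the deposited −log10 p-values. The deposited fold, a ratio of pileup over the local background made by the authors, was compared within lists as a level, and by rank between lists. The deposited −log10 q-value was used as a filter in the alternatives. Narrow calling of marks that spread over kilobases can break a stretch into several peaks.

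Positions are mm9, counting from 1. No genome or annotation of that build was used here, so the regions are named by position, without genes or sequence. Peaks were merged where they overlapped or touched, and overlap counted from 1 bp. Planned comparisons of genes and sequence content were not run. Members, lists and tests were chosen with earlier results of these data known. Regions named were the 10 longest, the 5 with most H3K4me1, the 5 longest without it, 3 on each side of the length limit, the 3 closest to a single peak and the 3 with most peaks. Gaps, profiles, sides, neighbours and chromosomes were added after the lists were seen. Alternatives are given in the closing section. Estimated fragment lengths of 199 to 255 bp limit the resolution of the profiles. The code, on Python 3.11.15, NumPy 2.4.6, pandas 2.3.3, SciPy 1.17.1 and Matplotlib 3.10.9, was tested on simulated peak lists against base-by-base counting and passed 80 of 80 checks.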

Additional observations from a re-analysis of the deposited data

How the results depend on the processing

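The number of broad regions depended on the rule: 237 in clusters of fewer than 5, 746 from 4000 bp, 252 from 6000 bp and 1582 with peaks of a list joined across 1000 bp, and 244 to 285 with an H3K27ac list left out. The other settings gave 334 to 525. With the q limit raised to a minus log10 value of 10, 74.0% overlapped H3K4me1 consensus, and with a list of either mark left out 81.6% to 92.3% did. H3K4me1 cover was 28.6% in clusters of fewer than 5, 25.6% at that q limit and 39.7% with joined peaks, and 28.3% to 31.1% with a list left out. The lower cover around the summit kept its sign under all 16 alternatives run, from -6.53 to -2.64 points, and the mean excess of the central windows over those of shorter regions was positive under all 15, from 0.172 to 9.22. H3K4me1 replicate 2 alone gave -0.518 from 4000 bp and -0.295 without H3K27ac replicate 1. Pooled over the clusters of the broad regions, not matched by cluster, the direction was the opposite. The difference from large clusters was negative under 14 of 15 and 0.885 with joined peaks, where the lists were opposed, at 3.69 and -1.92. From 6000 bp it was -0.364, with the lists again opposed, at -1.74 and 1.01. With stitching across 5000 bp it was -0.579. With large clusters redefined as 20 or more it was -14.2, over few regions. The difference between centre and edges changed sign, to -1.57 from 4000 bp and -2.53 with wider windows, and ranged from -2.59 to 0.813 with a list left out. It was 6.86 with joined peaks, 2.26 from 6000 bp and 1.69 at the higher q limit, positive in both lists. Both lists were also positive in clusters of fewer than 5 (mean 1.39) and with stitching across 25000 bp (1.09). The same held with at least 2 of the 3 H3K27ac lists (1.23) and without H3K27ac replicate 3 (0.727). Both were negative from 4000 bp, with wider windows and without H3K27ac replicate 1. In the other settings that used both lists they were opposed. The cause was not tested. Depth limits the lists: a base outside a peak only failed the caller's limit. No paired analysis was possible because the immunoprecipitates carry running numbers across the marks, and no test compared the marks as groups of replicates.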

Other observations

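By chromosome, the rule left out 3 regions of 5000 bp or longer, all on chromosome X, of 5714, 5069 and 6277 bp, starting at 13200442, 18729616 and 136062941. No H3K4me1 peak of either list covered any base of them, as in 24 of the 428 regions on chromosomes 1 to 19. The H3K4me1 lists held few peaks on chromosome X, 0.611% and 0.469% of their peaks in replicates 1 and 2, against 1.90% to 2.099% in the H3K27ac lists. The 4 broad regions of the cluster on chromosome 2 from 129193480 to 129234208 differed among themselves: H3K4me1 covered 14.4% and 18.2% of the first in replicates 1 and 2, 20.3% and 42.6% of the next, 4.52% and 0% of the third from 129216569, and 20.2% and 36.6% of the last.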
